A study of Mus musculus with 29 samples.

Results

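The 10 genes described here are a panel that glucocorticoids are known to act on in muscle and other tissues: Nr3c1, Fkbp5, Tsc22d3, Klf9, Klf15, Cebpb, Cebpd, Mt1, Mt2 and Zbtb16. They were picked by name, with earlier results of these data known, and all 10 were found among the 48023 genes of the table. All 10 also passed the filter on low counts in both mouse lines, with between 6 reads (Mt2) and 6503 reads (Tsc22d3) in a library.

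Glucocorticoids, corticosterone in mice, enter the cell and bind the glucocorticoid receptor, a transcription factor that waits in the cytoplasm on heat shock protein 90 and its co-chaperones. The bound receptor moves to the nucleus and switches on genes that carry its response elements, among them genes that feed back on the receptor itself. In skeletal muscle the hormone favours protein breakdown and a turn from glucose to fat as fuel, and its level in blood is known to rise in fasting and to follow a daily rhythm.

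RNA was measured in skeletal muscle of 29 male mice aged 2 to 3 months, on a C57BL/6J background that was not complete in either line. The muscle was the tibialis anterior by the figure legends. p110α and p110β are the catalytic subunits of phosphatidylinositol 3-kinase. M-p110αKO mice carry a floxed exon 1 of the p110α gene and M-p110βKO mice a floxed exon 2 of the p110β gene, each with Cre driven by the human alpha-skeletal actin promoter, which is active in muscle fibres and not in the other cells of the tissue. Controls, labelled WT, were floxed mice of the same line, and each line was sampled fed or after 24 h without food in a new cage. In the p110α line there were 4 fed controls (mice 1 to 4), 4 fed M-p110αKO (mice 5 to 8), 4 fasted controls (mice 9 to 12) and 3 fasted M-p110αKO (mice 13 to 15). In the p110β line there were 3 fed controls (mice 16 to 18), 4 fed M-p110βKO (mice 19 to 22), 3 fasted controls (mice 23 to 25) and 4 fasted M-p110βKO (mice 26 to 29). By the methods, the C57BL/6 background was purer in the p110α-floxed line than in the p110β-floxed one, so a difference between lines cannot be told apart from genetic background or from anything else in which the lines differed. The hour of sampling is not given in the sources used here.

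Levels are given as CPM, reads of a gene scaled to library size with TMM factors over all 29 libraries, and as CPM per kb of exon where genes are compared with each other. Libraries held 5351935 to 11653239 reads in genes (median 7828636). A count over every exon is no check on the loss of 1 exon: Pik3ca differed between M-p110αKO and controls by 0.10 (fed, adjusted p = 0.805) and −0.09 (fasted, adjusted p = 0.748) on the log2 scale, and Pik3cb between M-p110βKO and controls by 0.00 (adjusted p = 0.995) and 0.04 (adjusted p = 0.927). Myofibre markers were abundant in every library. Fasted p110β controls 23 and 24 stood apart by their adipocyte markers, with 152 and 194 reads of Adipoq against 0 to 41 in the other 27 libraries and 387 to 424 CPM over the 7 adipocyte markers against at most 207. In such bulk samples fewer cells of a type and less RNA per cell cannot be told apart.

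Promoter sequence was matched in RefSeq (GRCm38.p6) for 7 of the 10 genes, and 3 of these promoters are shown because they hold clusters of short motifs and belong to genes that fasting raised most in the p110β line (Mt1, Mt2) or that varied with Fkbp5 among mice (Klf15). Each runs from 250 bases before the start of transcription to 30 bases after its first base, on the plus strand. Capitals in Mt1 (chr8:94178839-94179118) and Mt2 (chr8:94172368-94172647) mark the core of the metal response element, TGCACNC or TGCGCNC on either strand, where the zinc-sensing factor MTF-1 is known to bind. Capitals in Klf15 (chr6:90462326-90462605) mark the E-box CACGTG, a palindrome bound by basic helix-loop-helix factors, the clock factors among them.
Mt1: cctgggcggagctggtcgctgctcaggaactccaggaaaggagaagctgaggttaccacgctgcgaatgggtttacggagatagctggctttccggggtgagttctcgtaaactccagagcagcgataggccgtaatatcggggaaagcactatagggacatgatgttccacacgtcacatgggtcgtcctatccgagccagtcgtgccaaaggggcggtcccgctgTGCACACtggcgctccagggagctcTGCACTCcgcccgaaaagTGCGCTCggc
Mt2: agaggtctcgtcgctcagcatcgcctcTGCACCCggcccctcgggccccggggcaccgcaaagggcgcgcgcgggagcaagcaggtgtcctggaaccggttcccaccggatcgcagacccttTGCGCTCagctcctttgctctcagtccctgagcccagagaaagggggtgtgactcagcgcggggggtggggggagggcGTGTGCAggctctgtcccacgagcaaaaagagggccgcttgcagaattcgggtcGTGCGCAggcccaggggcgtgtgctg
Klf15: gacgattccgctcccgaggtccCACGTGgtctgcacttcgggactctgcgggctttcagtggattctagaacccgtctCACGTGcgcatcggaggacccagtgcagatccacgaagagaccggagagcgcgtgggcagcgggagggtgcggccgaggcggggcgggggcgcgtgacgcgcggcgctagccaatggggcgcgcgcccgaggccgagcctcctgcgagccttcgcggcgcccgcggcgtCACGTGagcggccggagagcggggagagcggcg
Counted over windows of 300 bases, Mt2 held 4 metal response elements and Mt1 held 3. At least 4 were found in 0.517% and at least 3 in 1.97% of the 32851 promoters of the table, while 25.7% held at least 1. Klf15 held 3 E-boxes, as did 0.0883% of promoters, and also 1 metal response element, which overlaps an E-box. Fkbp5 held 1 E-box, as did 7.15% of promoters. The core of the glucocorticoid response element, ACANNNTGT, was present in 6.85% of promoters and, among these genes, only in Mt1, 92 bases before the start of transcription. The shorter hexamer AGAACA of that element, on either strand, was present in 19.0% of promoters and in 1 of 3 promoters of Tsc22d3. A match describes these letters and shows no binding.

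Fasting raised 9 of the 10 genes in each genotype of the p110β line and 2 of the 10 in each genotype of the p110α line. In p110β controls, Fkbp5, Tsc22d3, Klf9, Klf15, Cebpb, Cebpd, Mt1, Mt2 and Zbtb16 rose, where 14.5% of the 12249 genes tested rose (edgeR quasi-likelihood test, adjusted p under 0.05), and their fed and fasted mice did not overlap. The median log2 fold change over the 10 genes was 1.43, against −0.02 over all genes tested. In M-p110βKO the same 9 genes rose, where 19.0% of all genes rose, with a median of 1.84 against −0.02, and again without overlap. In p110α controls Klf9 and Cebpd rose, where 15.4% of the 12433 genes tested rose, and the median was 0.43 against 0.00. In M-p110αKO Klf9 and Cebpd rose and Tsc22d3 fell, where 11.6% of all genes rose and 9.91% fell, and the median was 0.41 against 0.00. The count in p110α controls rested on 1 fed mouse: without mouse 4, 6 of the 10 genes rose, adding Fkbp5 (1.61), Klf15 (0.58), Mt2 (1.25) and Zbtb16 (1.16) on the log2 scale. By limma-voom Fkbp5 also passed in p110α controls (1.36, adjusted p = 0.0282), as did Klf15 with a correction for GC content and length (0.55, adjusted p = 0.0289). Leaving out mice 23 and 24 leaves mouse 25 as the only fasted p110β control, whose spread is then taken from the other groups, and the 9 genes passed in that fit too.

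**Figure D1:**
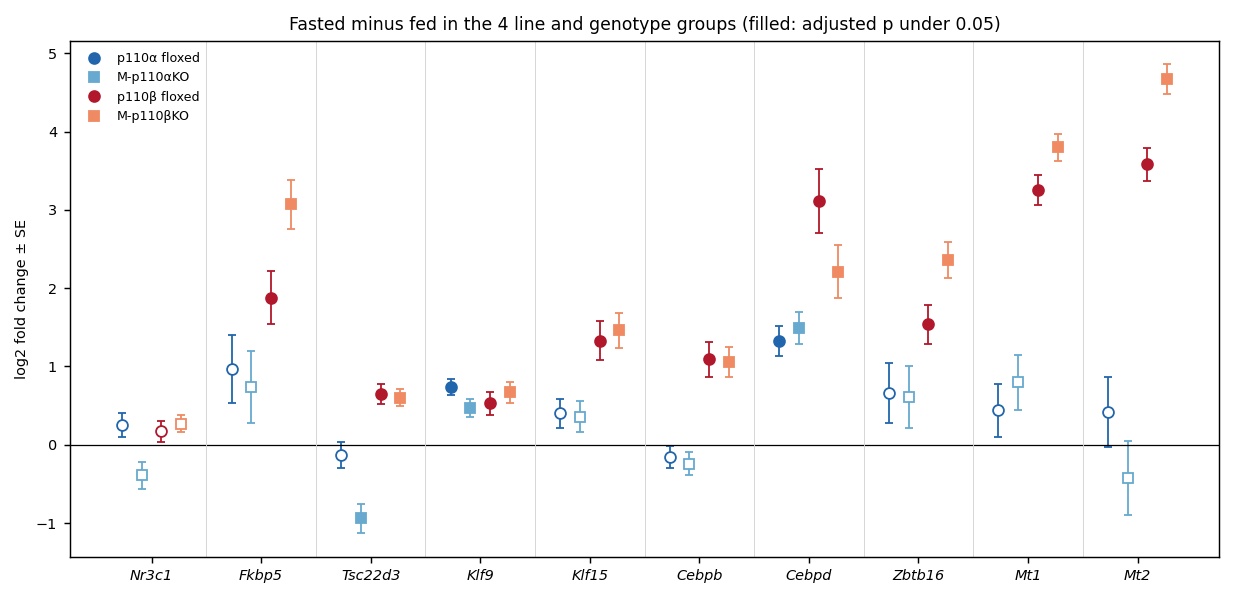
Log2 fold change of fasted over fed mice for the 10 genes (log2 axis, bars are standard errors) in controls (circles) and knockouts (squares) of the p110α line (blue shades) and the p110β line (red and orange), filled where the adjusted p is under 0.05. In the p110β line 9 of 10 genes are filled in each genotype and the metallothioneins reach 3.25 to 4.67, while in the p110α line Klf9 and Cebpd are filled upward in both genotypes and Tsc22d3 is filled downward in M-p110αKO at −0.94.

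Nr3c1 (ENSMUSG00000024431, chr18:39410545-39519421, minus strand) encodes the glucocorticoid receptor. Fed p110α controls held 110, 123, 145 and 107 CPM of it. It was at 138, 130, 105 and 107 in fed M-p110αKO, 172, 140, 124 and 143 in fasted controls and 119, 70.5 and 84.5 in fasted M-p110αKO. Fed p110β controls held 74.1, 75.8 and 77.3 CPM. It was at 64.7, 84.9, 80.2 and 75.4 in fed M-p110βKO, 74.5, 83.9 and 94.6 in fasted controls and 101, 98.8, 76.4 and 92.3 in fasted M-p110βKO. It is the one gene of the 10 for which no fasting comparison passed the test. All 3 fasted M-p110αKO mice lay below all 4 fasted p110α controls. The log2 difference of fasted M-p110αKO from fasted controls was −0.65 ± 0.17 (SE, adjusted p = 0.0269), the one knockout difference that passed among the 10 genes, where 6.52% of all genes did. That call was lost in 5 of 7 fits that left out 1 mouse, with adjusted p = 0.0775 without mouse 9, 0.0502 without mouse 10, 0.0518 without mouse 12, 0.147 without mouse 14 and 0.0765 without mouse 15. It was also lost with a correction for GC content and length (−0.51, adjusted p = 0.0977). The fasting response in M-p110αKO was −0.39 ± 0.17 (adjusted p = 0.101) and passed without mouse 13 (−0.65, adjusted p = 0.0159). That of M-p110βKO, 0.27 ± 0.11 (adjusted p = 0.0589), passed without mouse 20 (0.33, adjusted p = 0.0389) or mouse 28 (0.37, adjusted p = 0.0125).

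Fkbp5 (ENSMUSG00000024222, chr17:28399094-28517527, minus strand) encodes FKBP51, a co-chaperone that the receptor induces and that lowers its affinity for hormone. Fed p110α controls held 28.8, 39.0, 116 and 191 CPM, and fed M-p110αKO held 69.4, 55.6, 113 and 161 CPM. Fasted p110α controls held 192, 221, 189 and 134 CPM and fasted M-p110αKO 214, 134 and 152 CPM. The fed mice of that line spanned a wide range, 6.61-fold among the controls, and those with the most Fkbp5 reached the fasted range. Fed p110β controls held 24.3, 66.5 and 62.7 CPM, fed M-p110βKO 24.2, 32.6, 20.6 and 39.2, fasted controls 158, 152 and 246, and fasted M-p110βKO 304, 130, 239 and 310. Every fasted mouse of the p110β line lay above every fed one. Fasting changed Fkbp5 by 1.88 ± 0.34 in p110β controls (log2, SE, 3.67-fold, adjusted p = 0.000525) and by 3.07 ± 0.31 in M-p110βKO (8.41-fold, adjusted p = 7.77e-07). In p110α mice the estimates were 0.97 ± 0.43 in controls (adjusted p = 0.101) and 0.74 ± 0.46 in M-p110αKO (adjusted p = 0.270).

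Tsc22d3 (ENSMUSG00000031431, chrX:140539528-140600659, minus strand) encodes GILZ, a leucine zipper protein that carries part of the anti-inflammatory action of the hormone. Per kb of exon it was the most abundant of the 10, at a mean of 104 CPM per kb over all libraries, against 10.4 for Klf15, the least abundant. Fed p110α controls held 495, 478, 614 and 382 CPM, fed M-p110αKO 655, 607, 579 and 571, fasted p110α controls 447, 464, 581 and 310, and fasted M-p110αKO 404, 282 and 253. Fed p110β controls held 319, 385 and 332 CPM, fed M-p110βKO 291, 345, 313 and 370, fasted p110β controls 550, 562 and 505, and fasted M-p110βKO 495, 588, 440 and 472. It fell in 1 genotype of the p110α line and rose in both genotypes of the p110β line. In M-p110αKO it fell by 0.94 on the log2 scale (SE 0.19, adjusted p = 0.00226), with no overlap of fed and fasted mice, and in p110α controls the estimate was −0.13 ± 0.17 (adjusted p = 0.601). Its log2 rise was 0.65 ± 0.13 in p110β controls (adjusted p = 0.000904) and 0.60 ± 0.11 in M-p110βKO (adjusted p = 0.000349).

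**Figure D2:**
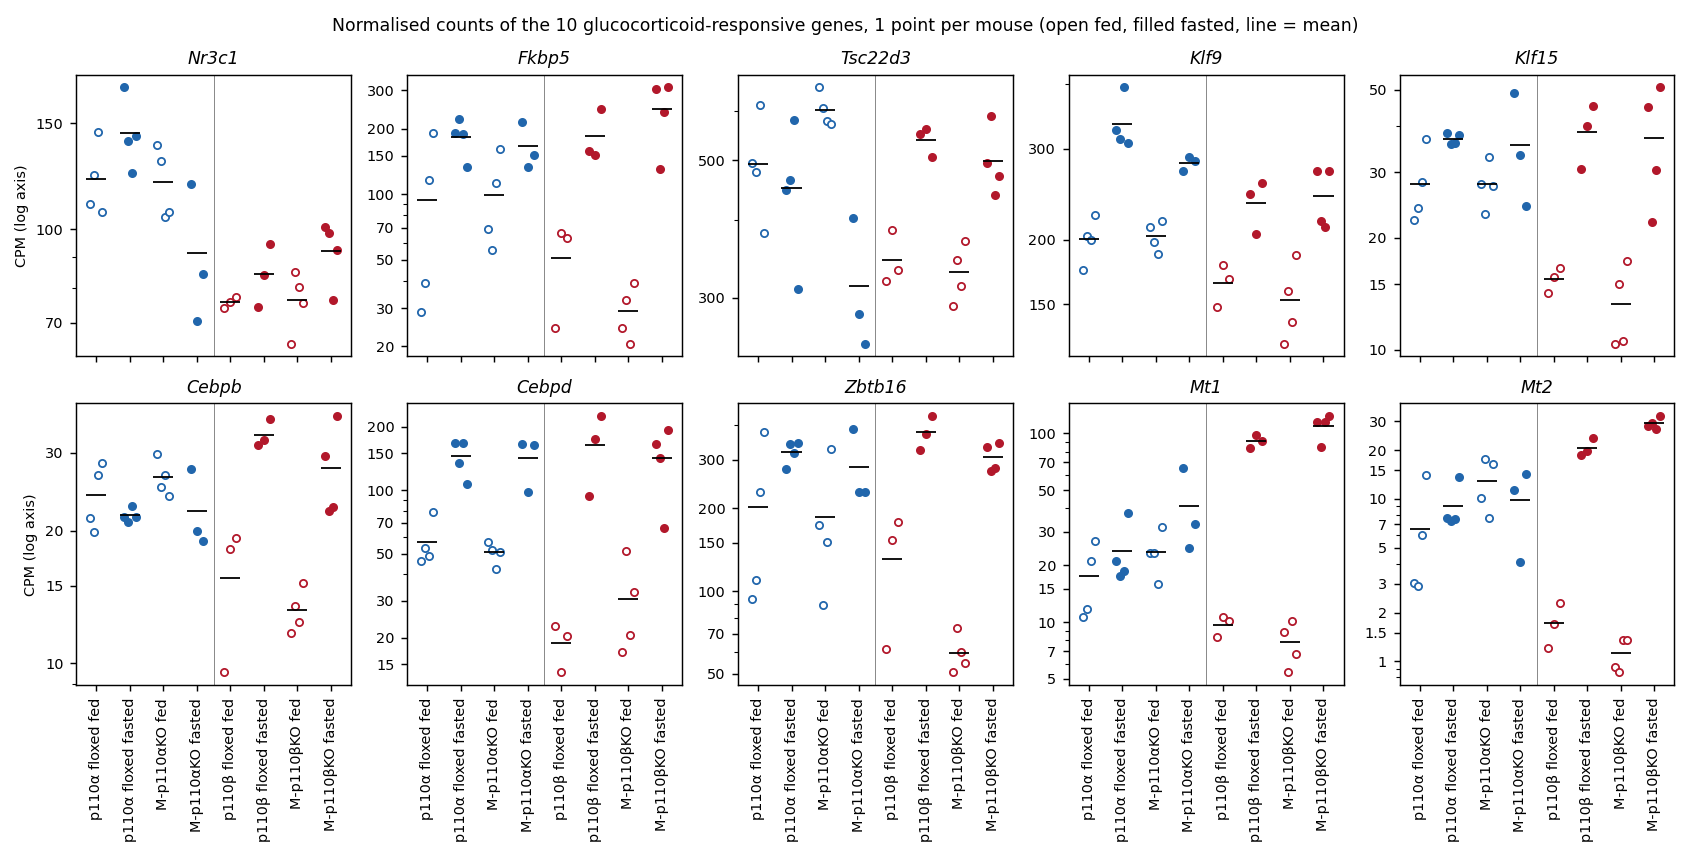
CPM (log axis) of the 10 genes in each of the 29 mice, 1 panel a gene, by group, with open points for fed and filled points for fasted mice and colour for the line (blue p110α, red p110β). Fed and fasted mice of the p110β line separate for Fkbp5, Mt1 and Mt2, whereas the fed p110α controls spread from 28.8 to 191 CPM for Fkbp5 and reach the fasted range.

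Klf9 and Klf15 are Krüppel-like transcription factors, the first a direct target of the receptor and the second a factor that works with the receptor and drives the breakdown of branched-chain amino acids. Klf9 (ENSMUSG00000033863, chr19:23141226-23168134, plus strand) held 175, 203, 200 and 223 CPM in fed p110α controls, 212, 198, 188 and 217 in fed M-p110αKO, 326, 313, 394 and 308 in fasted p110α controls and 271, 289 and 284 in fasted M-p110αKO. It held 148, 179 and 168 CPM in fed p110β controls, 126, 159, 139 and 187 in fed M-p110βKO, 245, 205 and 258 in fasted controls and 271, 217, 212 and 272 in fasted M-p110βKO. With Cebpd it was one of the pair of genes that rose in all 4 fasting comparisons, and in each of these its fed and fasted mice did not overlap. Its log2 fold changes were 0.74 ± 0.099 in p110α controls (adjusted p = 3.37e-05), 0.47 ± 0.11 in M-p110αKO (adjusted p = 0.00459), 0.53 ± 0.15 in p110β controls (adjusted p = 0.0124) and 0.67 ± 0.13 in M-p110βKO (adjusted p = 0.000505). The call in p110β controls was lost without mouse 16 (0.46, adjusted p = 0.0637).

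Klf15 (ENSMUSG00000030087, chr6:90462576-90475238, plus strand), whose promoter with 3 E-boxes is shown above, held 22.4, 24.1, 28.2 and 36.9 CPM in fed p110α controls, 27.9, 23.2, 33.1 and 27.5 in fed M-p110αKO, 38.3, 35.7, 36.0 and 37.9 in fasted p110α controls and 49.0, 33.5 and 24.3 in fasted M-p110αKO. Fed p110β controls held 14.2, 15.7 and 16.6 CPM and fed M-p110βKO 10.4, 15.0, 10.6 and 17.3. After fasting it was at 30.6, 40.1 and 45.2 in fasted controls and 45.0, 22.1, 30.5 and 50.8 in fasted M-p110βKO. Only fed control 4 of the p110α line overlapped with the fasted controls of that line. The p110α estimates were 0.40 ± 0.18 in controls (adjusted p = 0.106) and 0.36 ± 0.20 in M-p110αKO (adjusted p = 0.202). Klf15 rose 2.51-fold in p110β controls (log2 1.33 ± 0.25, adjusted p = 0.000807) and 2.76-fold in M-p110βKO (log2 1.46 ± 0.22, adjusted p = 6.22e-05).

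Cebpb and Cebpd encode CCAAT/enhancer binding proteins, which act with the receptor at many of its sites. Cebpb (ENSMUSG00000056501, chr2:167688915-167690418, plus strand) held 21.4, 19.8, 26.7 and 28.5 CPM in fed p110α controls, 29.8, 25.1, 26.7 and 23.9 in fed M-p110αKO, 21.5, 20.9, 22.7 and 21.5 in fasted p110α controls and 27.6, 20.0 and 18.9 in fasted M-p110αKO. It held 9.54, 18.2 and 19.2 CPM in fed p110β controls, 11.7, 13.5, 12.4 and 15.2 in fed M-p110βKO, 31.2, 32.0 and 35.8 in fasted controls and 29.5, 22.2, 22.6 and 36.3 in fasted M-p110βKO. Fed and fasted mice overlapped in both genotypes of the p110α line and in neither of the p110β line. Fasting raised it by 1.09 ± 0.22 in p110β controls (log2, adjusted p = 0.00105) and by 1.06 ± 0.19 in M-p110βKO (adjusted p = 0.000314), while the p110α estimates were −0.16 ± 0.14 in controls (adjusted p = 0.411) and −0.24 ± 0.15 in M-p110αKO (adjusted p = 0.263).

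Cebpd (ENSMUSG00000071637, chr16:15887286-15891031, plus strand) held 46.1, 53.4, 48.9 and 79.2 CPM in fed p110α controls, 57.1, 52.3, 42.4 and 51.2 in fed M-p110αKO, 168, 135, 168 and 107 in fasted p110α controls and 166, 97.7 and 163 in fasted M-p110αKO. Levels were 22.8, 13.7 and 20.3 CPM in fed p110β controls, 17.2, 51.3, 20.6 and 32.8 in fed M-p110βKO, 94.3, 174 and 224 in fasted controls and 165, 142, 66.4 and 192 in fasted M-p110βKO. Fed and fasted mice did not overlap in any of the 4 comparisons. Its log2 fold changes were 1.33 ± 0.19 in p110α controls (adjusted p = 7.05e-05), 1.49 ± 0.20 in M-p110αKO (adjusted p = 9.05e-05), 3.11 ± 0.41 in p110β controls (adjusted p = 2.19e-05) and 2.21 ± 0.34 in M-p110βKO (adjusted p = 6.12e-05). Cebpb shares 312 exon bases with Tmem189 and Cebpd 562 with Spidr on the opposite strand, and since the strand setting of the counting is not given in the sources used here, their reads may not be told apart.

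Zbtb16 (ENSMUSG00000066687, chr9:48654297-48836222, minus strand) encodes PLZF, a zinc finger repressor that glucocorticoids induce in many cell types. Fed p110α controls held 93.8, 110, 228 and 377 CPM, fed M-p110αKO 174, 88.9, 151 and 329, fasted p110α controls 278, 342, 317 and 345, and fasted M-p110αKO 387, 229 and 229. Fed p110β controls held 61.8, 153 and 178 CPM, fed M-p110βKO 50.6, 73.1, 59.9 and 55.0, fasted p110β controls 326, 373 and 431, and fasted M-p110βKO 333, 273, 279 and 346. As for Fkbp5, mice 3 and 4 were the highest of the fed p110α controls and mouse 16 the lowest of the fed p110β controls. Fasting raised Zbtb16 by 1.54 ± 0.25 in p110β controls (log2, 2.91-fold, adjusted p = 0.000202) and by 2.36 ± 0.23 in M-p110βKO (5.15-fold, adjusted p = 4.26e-07). In p110α mice the estimates were 0.66 ± 0.38 in controls (adjusted p = 0.199) and 0.61 ± 0.40 in M-p110αKO (adjusted p = 0.303).

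Mt1 (ENSMUSG00000031765, chr8:94179082-94180327, plus strand) and Mt2 (ENSMUSG00000031762, chr8:94172664-94173568, plus strand) encode metallothioneins, small proteins that bind zinc and copper and respond to metals and to glucocorticoids. They are neighbours on the same strand and close in coding sequence, so reads may be split between them. Mt1 held 10.6, 11.7, 21.0 and 26.8 CPM in fed p110α controls, 23.3, 23.3, 15.9 and 31.7 in fed M-p110αKO, 21.0, 17.6, 18.7 and 37.9 in fasted p110α controls and 65.2, 24.6 and 33.1 in fasted M-p110αKO. Levels were 8.33, 10.6 and 10.1 CPM in fed p110β controls, 8.90, 5.41, 10.1 and 6.80 in fed M-p110βKO, 84.0, 98.0 and 90.5 in fasted controls and 114, 84.4, 115 and 123 in fasted M-p110βKO. The lowest fasted p110β mouse, at 84.0 CPM, stood far above the highest fed one, at 10.6 CPM.

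Mt2 held 3.02, 2.91, 6.04 and 14.1 CPM in fed p110α controls, 10.1, 17.7, 7.65 and 16.5 in fed M-p110αKO, 7.66, 7.31, 7.57 and 13.6 in fasted p110α controls and 11.3, 4.08 and 14.2 in fasted M-p110αKO. Mt2 levels were 1.21, 1.69 and 2.28 CPM in fed p110β controls, 0.920, 0.855, 1.35 and 1.36 in fed M-p110βKO, 18.6, 19.7 and 23.8 in fasted controls and 28.1, 29.5, 26.9 and 32.3 in fasted M-p110βKO. The metallothioneins gave the widest fasting differences of the 10 genes in both genotypes of the p110β line. Mt1 rose 9.48-fold in p110β controls (log2 3.25 ± 0.19, adjusted p = 1.66e-09) and 14.0-fold in M-p110βKO (log2 3.80 ± 0.17, adjusted p = 2.05e-11). Mt2 rose 11.9-fold in p110β controls (log2 3.58 ± 0.21, adjusted p = 1.66e-09) and 25.5-fold in M-p110βKO (log2 4.67 ± 0.19, adjusted p = 8.91e-12). In p110α mice no fasting difference of the pair passed the test, with log2 estimates for Mt1 of 0.44 ± 0.34 in controls (adjusted p = 0.346) and 0.80 ± 0.35 in M-p110αKO (adjusted p = 0.110) and for Mt2 of 0.42 ± 0.45 (adjusted p = 0.509) and −0.42 ± 0.47 (adjusted p = 0.564). Mt2 shares 432 exon bases with the antisense gene Gm45774, so the strand limit holds for it too.

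Among the 10 genes, the only difference of a knockout from its controls within a feeding state that passed the test was that of Nr3c1 described above. In fed M-p110αKO none of the 10 genes passed the test (edgeR, 0.611% of all genes did), 1 of them, Mt2 at 0.95 ± 0.44, had an unadjusted p under 0.05, and DESeq2 and limma-voom also called 0. In fed M-p110βKO none passed, nor did any other gene (0.0%), DESeq2 and limma-voom called 0, and Zbtb16 and Fkbp5 (−0.79 ± 0.32, adjusted p = 0.487) had an unadjusted p under 0.05. Zbtb16 differed by −1.12 ± 0.23 (log2, adjusted p = 0.113). Control mouse 16, with 61.8 CPM, lay within the range of the knockouts. Without that mouse the difference was −1.46 (adjusted p = 7.20e-05). In fasted M-p110αKO only Nr3c1 passed, and 3 more genes had an unadjusted p under 0.05: Klf9 (−0.25 ± 0.11, adjusted p = 0.174), whose 3 knockouts lay below all 4 controls, Mt1 (0.79 ± 0.35, adjusted p = 0.185) and Tsc22d3. Tsc22d3 (−0.52 ± 0.19, adjusted p = 0.108) passed without control 12 (−0.66) or without M-p110αKO mouse 13 (−0.75), and in the last case both genes passed. In fasted M-p110βKO none passed (0.890% of all genes did, with 0 calls by DESeq2 and limma-voom). Mt2 alone had an unadjusted p under 0.05 there: all 4 knockouts lay above all 3 controls, and the log2 difference was 0.50 ± 0.14 (adjusted p = 0.118, and 0.62 with adjusted p = 0.0333 without control 25).

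Whether the knockouts changed the response to fasting was tested as an interaction. In the p110α line none of the 10 genes passed (0.483% of all genes did, with 0 calls by DESeq2 and limma-voom), and 2 had an unadjusted p under 0.05. These were Tsc22d3 at −0.81 ± 0.26 (adjusted p = 0.155) and Nr3c1 at −0.64 ± 0.22 (adjusted p = 0.189). In the p110β line none passed (0.106% of all genes did, with 0 calls by DESeq2 and limma-voom), and 4 had an unadjusted p under 0.05, each with a wider response in M-p110βKO. These were Fkbp5 at 1.20 ± 0.44 (adjusted p = 0.296), Mt2 at 1.09 ± 0.33 (adjusted p = 0.218), Zbtb16 at 0.83 ± 0.33 (adjusted p = 0.316) and Mt1 at 0.56 ± 0.25 (adjusted p = 0.358). Without control mouse 16 the interaction for Zbtb16 was 1.16 (adjusted p = 0.0209), the one call of an interaction among the fits that left out 1 mouse.

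**Figure D3:**
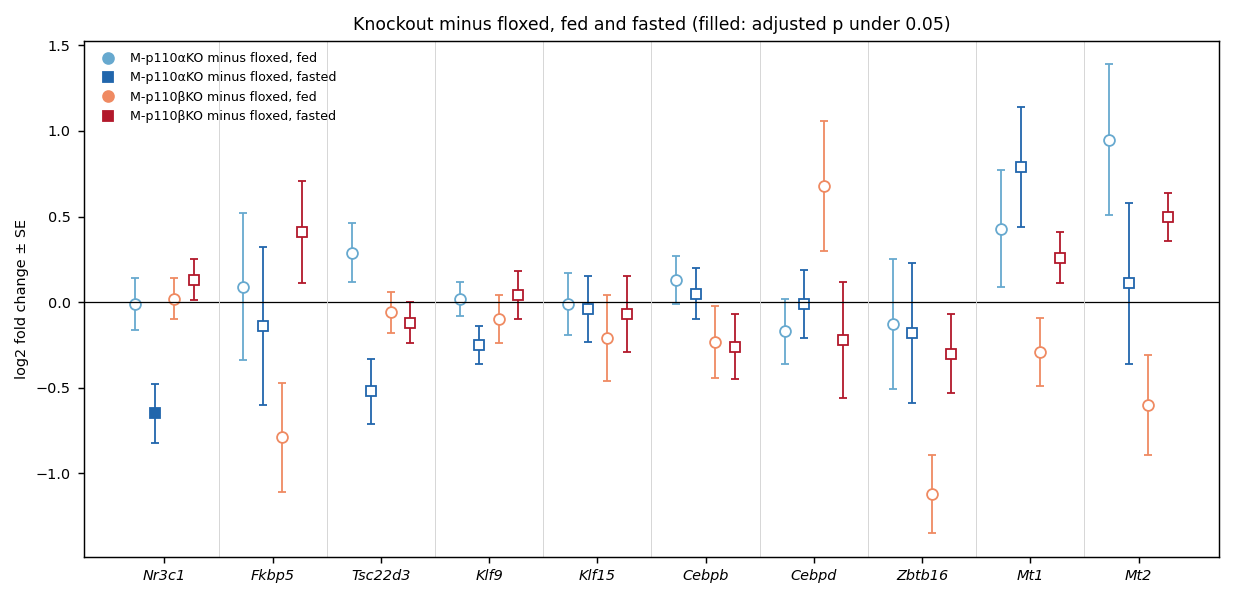
Log2 difference of knockout from control for the 10 genes (log2 axis, bars are standard errors), fed (circles) and fasted (squares), in the p110α line (blue shades) and the p110β line (red and orange), filled where the adjusted p is under 0.05. The single filled point is Nr3c1 in fasted M-p110αKO at −0.65, and Zbtb16 in fed M-p110βKO lies lowest at −1.12 without passing.

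The lines themselves differed. Among fed controls, 6 of the 10 genes were lower in the p110β line and none higher, where 20.3% of the 12760 genes tested differed in either direction: Nr3c1 (−0.68 ± 0.15, adjusted p = 0.00256), Tsc22d3 (−0.51 ± 0.17, adjusted p = 0.0309), Klf15 (−0.85 ± 0.24, adjusted p = 0.0142), Cebpb (−0.63 ± 0.19, adjusted p = 0.0208), Cebpd (−1.58 ± 0.35, adjusted p = 0.00219) and Mt2 (−1.96 ± 0.52, adjusted p = 0.00797). This count fell to 3 without mouse 4 and to 2 without mouse 16. Nr3c1 and Cebpd passed in every fit that left out 1 mouse. Cebpb was −0.38 without mouse 16 and Mt2 was −1.12 (adjusted p = 0.0929) without mouse 4. Mt2 missed by limma-voom (−1.68, adjusted p = 0.0671), and with the GC and length correction Tsc22d3 missed (−0.47, adjusted p = 0.0548) and Mt1 passed (−1.12, adjusted p = 0.0267). Among fed knockouts 9 of the 10 genes passed as lower in M-p110βKO than in M-p110αKO, from −0.42 for Klf9 to −3.52 for Mt2. Over all genes 31.2% differed in either direction. Cebpd was lower too, at −0.73 (adjusted p = 0.0659). It passed by limma-voom (−0.85, adjusted p = 0.0419) and without mouse 20 (−1.11, adjusted p = 0.00915). Among fasted controls Cebpb (0.61), Mt1 (1.93) and Mt2 (1.19) were higher and Nr3c1 (−0.78) and Klf9 (−0.51) lower in the p110β line, where 30.3% of all genes differed. With the GC and length correction Cebpb was at 0.21 (adjusted p = 0.463) and Mt2 at 0.80 (adjusted p = 0.118), which ended both calls. Against mouse 25 alone, without mice 23 and 24, Mt1 passed (1.94), while Mt2 (1.41, adjusted p = 0.0882), Cebpb (0.74, adjusted p = 0.0816), Nr3c1 (−0.59, adjusted p = 0.108) and Klf9 (−0.36, adjusted p = 0.247) kept their direction in a fit with 1 mouse in that group and did not pass.

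The responses to fasting were then compared between lines, in mice that the comparisons above also used. In controls the response was larger in the p110β line for 4 of the 10 genes, where 0.933% of all genes had a higher response. Mt2 differed by 3.15 ± 0.63 (adjusted p = 0.0107), Mt1 by 2.79 ± 0.45 (adjusted p = 0.00107), Cebpd by 1.76 ± 0.46 (adjusted p = 0.0455) and Cebpb by 1.23 ± 0.26 (adjusted p = 0.0156). Cebpd lost its call in 11 of the 14 fits that left out 1 mouse, and without mouse 16 Cebpb lost it too (adjusted p = 0.0538), leaving 2. Cebpd also missed by limma-voom (1.68, adjusted p = 0.0714) and with the GC and length correction (1.75, adjusted p = 0.0597), and Tsc22d3 passed by DESeq2 (0.80, adjusted p = 0.0337). With mouse 25 as the only fasted p110β control, Cebpb was at 1.37 (adjusted p = 0.0567). In knockouts the signed difference of the responses, M-p110βKO minus M-p110αKO, passed the test above 0 for 8 of the 10 genes. Over all genes 5.63% did so. Klf9 (0.20, adjusted p = 0.480) and Cebpd (0.72, adjusted p = 0.302) were above 0 without passing. For Tsc22d3 and Nr3c1 the responses had opposite signs in the 2 knockouts (−0.94 and −0.39 in M-p110αKO, 0.60 and 0.27 in M-p110βKO). The differences that passed ran from 0.67 for Nr3c1 to 5.10 for Mt2. Fkbp5 differed by 2.33 ± 0.62 (adjusted p = 0.0152) and Tsc22d3 by 1.54 ± 0.23 (adjusted p = 9.77e-05). Of the 15 fits that left out 1 mouse, Nr3c1 lost its call in 8, Klf15 in 6 and Zbtb16 in 4. Without mouse 14, 15 or 19 these genes all lost it, and the count was 5. Nr3c1 also missed with the GC and length correction (0.54, adjusted p = 0.073).

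Genes of the daily clock moved with the line as well. Nr1d1, a clock repressor whose level swings through the day, was at 63.6 to 65.8 CPM in fed p110β controls and 18.1 to 32.6 CPM in fed p110α controls. After fasting it was at 16.7 to 19.2 CPM in p110β controls and 28.0 to 35.7 CPM in p110α controls. Its fasting response differed between the lines by −2.21 ± 0.21 (log2, adjusted p = 4.49e-07), and that of Arntl, the clock activator also called Bmal1, by −1.80 ± 0.28 (adjusted p = 0.00104). Of the 14 clock genes tested, 3 rose and 6 fell with fasting in p110α controls and 3 rose and 5 fell in p110β controls. Over all genes 15.4% rose and 14.7% fell in p110α controls and 14.5% rose and 12.4% fell in p110β controls. Of the clock genes 2 had a higher and 3 a lower response in the p110β line, where 0.933% and 0.627% of all genes did. The part of the clock or of the hour of sampling in the line differences of the panel was not tested. Markers of other cells also moved with fasting. In M-p110βKO all 6 fibroblast markers fell (median −1.37) and 4 of 4 tested macrophage markers fell (median −1.31), where 18.9% of all genes fell. In p110β controls 4 of 4 tested adipocyte markers rose (median 5.30), where 14.5% of all genes rose. Among those fasted controls Adipoq had 152 and 194 reads in mice 23 and 24 and 3 in mouse 25. In M-p110βKO none of the 4 adipocyte markers passed (median −2.53). The part of all these markers in the responses was not tested.

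Mice of 1 group varied together in part of the panel. How far genes outside the panel varied with Fkbp5 within groups was not tested, so this cannot be called particular to the panel. Log2 CPM of each gene was centred on its group mean, and the other 9 genes were correlated with Fkbp5 over the 29 libraries, with libraries permuted within groups and p adjusted over the 9 genes. Zbtb16 followed Fkbp5 most closely (r = 0.86, permutation p = 0.00015, adjusted p = 0.000675, Spearman's rho = 0.79, permutation p = 0.0005, adjusted p = 0.00225). Klf15 followed with r = 0.67 (permutation p = 3e-05, adjusted p = 0.00027) and rho = 0.68 (permutation p = 0.0003, adjusted p = 0.00225). Cebpb had r = 0.67 (permutation p = 0.00143, adjusted p = 0.00322) and rho = 0.70 (permutation p = 0.00135, adjusted p = 0.0034), and Klf9 r = 0.56 (permutation p = 0.00133, adjusted p = 0.00322) and rho = 0.61 (permutation p = 0.00151, adjusted p = 0.0034). The other 5 genes did not pass, with r = 0.52 for Mt2 (permutation p = 0.0579, adjusted p = 0.104), 0.46 for Mt1 (permutation p = 0.0694, adjusted p = 0.104), 0.28 for Cebpd (permutation p = 0.140, adjusted p = 0.180), 0.05 for Nr3c1 (permutation p = 0.816, adjusted p = 0.904) and 0.03 for Tsc22d3 (permutation p = 0.904, adjusted p = 0.904).

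The fed p110α controls 1 and 4 lay farthest from the median of centred Fkbp5. Without them r was 0.79 for Zbtb16, 0.63 for Klf15, 0.67 for Cebpb and 0.49 for Klf9, and these 4 genes passed again. Within the 15 mice of the p110α line only Zbtb16 passed by r (0.90, permutation p = 0.00209, adjusted p = 0.0188), and by rho it did not (0.81, permutation p = 0.0164, adjusted p = 0.148). Klf15 reached r = 0.65 there (permutation p = 0.014, adjusted p = 0.063). Within the 14 mice of the p110β line r was 0.88 for Cebpb (permutation p = 0.00092, adjusted p = 0.00414), 0.77 for Klf15 (permutation p = 0.00077, adjusted p = 0.00414), 0.76 for Zbtb16 (permutation p = 0.0185, adjusted p = 0.0416) and 0.75 for Klf9 (permutation p = 0.00251, adjusted p = 0.00753). By rho Zbtb16 did not pass there either (0.70, permutation p = 0.0397, adjusted p = 0.0893).

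**Figure D4:**
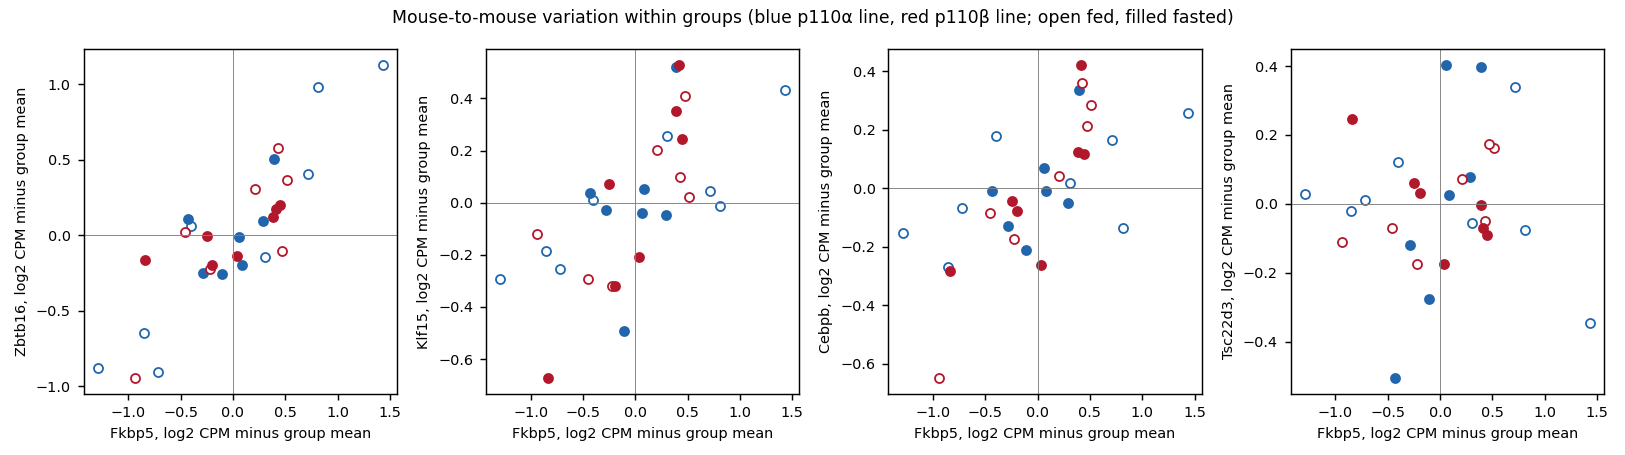
Centred log2 CPM of Zbtb16, Klf15, Cebpb and Tsc22d3 (y axes) against centred log2 CPM of Fkbp5 (x axes), each mouse as a point minus its group mean, blue for the p110α line, red for the p110β line, open for fed and filled for fasted mice. Points rise from lower left to upper right for Zbtb16 (r = 0.86), Klf15 (r = 0.67) and Cebpb (r = 0.67) and not for Tsc22d3 (r = 0.03), and fed p110α controls lie at both ends of the Fkbp5 axis.

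Over all 29 libraries, group differences included, the genes outside the panel closest to a member by Pearson's r of log2 CPM were taken among 7755 genes that averaged 3 or more on the log2 CPM scale. For Fkbp5 these were Plin4 (0.937), a lipid droplet coat protein, Eci2 (0.934), an enzyme of fatty acid oxidation, and Pcnt (0.929), a centrosome scaffold. Plin4 was also the closest gene to Zbtb16 (0.938), followed by Pdk4 (0.912), the kinase that shuts pyruvate dehydrogenase, and Uhrf2 (0.906). Klf15 lay closest to Pcnt (0.921), Plin4 (0.920) and Glul (0.912), the glutamine synthetase. Tsc22d3 had looser neighbours, Ccny (0.821), Hspa5 (0.760), the chaperone of the endoplasmic reticulum, and Rnf144b (0.736).

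Of a list of other genes known to respond to glucocorticoids, 25 passed the filter. In p110β mice 18 rose and none fell in either genotype (medians 1.29 in controls and 1.20 in M-p110βKO), where 14.5% and 19.0% of all genes rose. In p110α controls 10 rose and 5 fell (median 0.42), where 15.4% and 14.7% of all genes did, and in M-p110αKO 9 rose and 4 fell (median 0.19), where 11.6% and 9.91% did. The response was higher in p110β than in p110α controls for 5 of the 25, where 0.933% of all genes had a higher response. It was higher in M-p110βKO than in M-p110αKO for 14 of the 25, where 5.63% of all genes did. It was lower for none in either comparison, where 0.627% (controls) and 5.05% (knockouts) of all genes had a lower response. Against controls, 1 of the 25 was higher in fed M-p110αKO and 3 were lower in fasted M-p110αKO, where 0.611% and 6.52% of all genes differed. The p110α interaction passed below 0 for 2 of the 25, where 0.483% of all genes passed. None of the 25 passed the knockout or interaction tests in the p110β line (fed 0.0%, fasted 0.890%, interaction 0.106% of all genes). Fbxo32, a muscle ubiquitin ligase of protein breakdown, rose in all 4 fasting comparisons and did not differ detectably between the lines in controls, with 2.89 ± 0.12 in p110α controls, 2.33 ± 0.21 in p110β controls and a line difference of −0.57 ± 0.23 (adjusted p = 0.193). Among fasted mice Fbxo32 was lower in M-p110αKO than in controls (−0.80 ± 0.12, adjusted p = 0.00148). Foxo1, a transcription factor of the fasting program, resembled the panel: it rose by 2.23 ± 0.21 in p110β controls (adjusted p = 6.67e-07) and was at 0.54 ± 0.42 in p110α controls (adjusted p = 0.353), where the fed mice 3 and 4 held 140 and 117 CPM and fed mice 1 and 2 held 30.7 and 39.7 CPM. Pdk4 rose in all 4 comparisons, from 1.14 ± 0.27 in M-p110αKO (adjusted p = 0.00629) to 3.61 ± 0.22 in M-p110βKO (adjusted p = 2.19e-09).

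**Figure D5:**
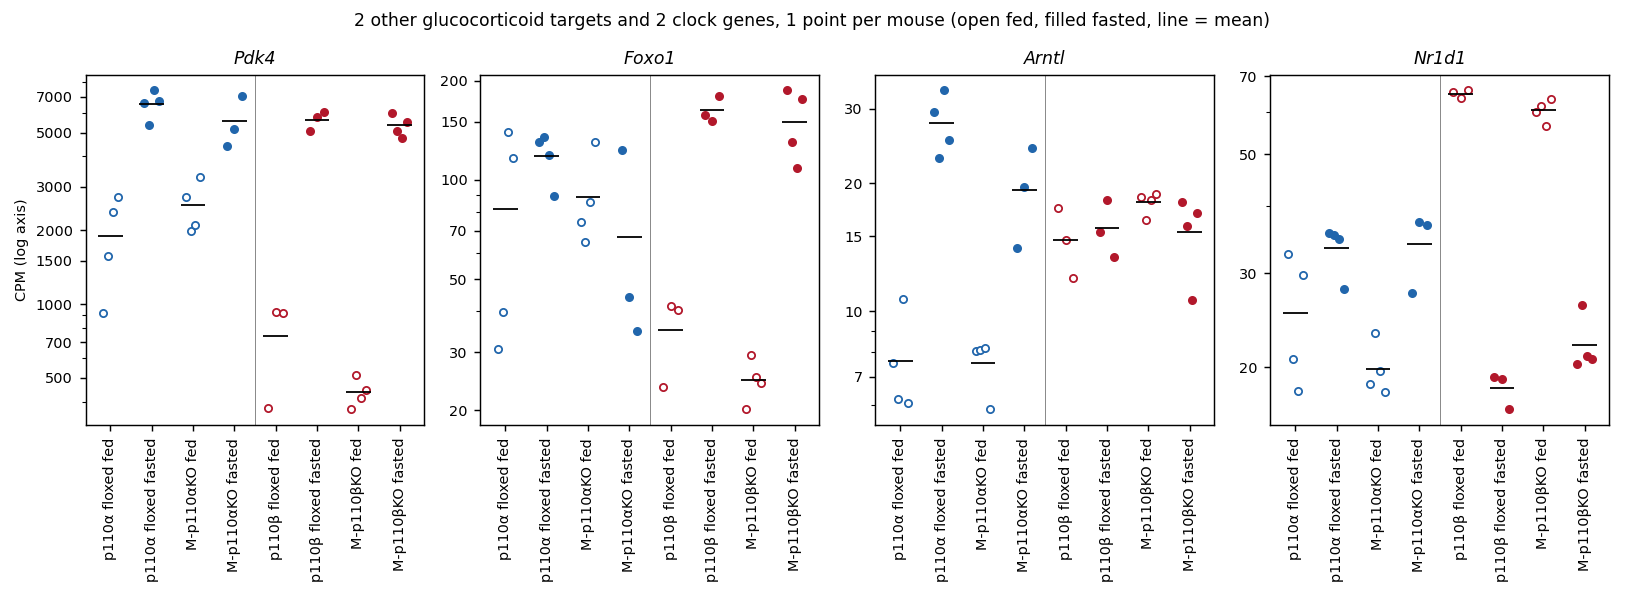
CPM (log axis) of Pdk4, Foxo1, Arntl and Nr1d1 in each of the 29 mice, by group, open for fed and filled for fasted mice, blue for the p110α line and red for the p110β line, with lines at group means. Foxo1 spreads from 30.7 to 140 CPM in fed p110α controls and Nr1d1 is at 63.6 to 65.8 CPM in fed p110β controls against 18.1 to 32.6 CPM in fed p110α controls.

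Genes that hold or modify the receptor and its hormone formed 3 further lists. Of 8 receptor chaperones, Stub1, Fkbp4 and Stip1 fell with fasting in p110α controls, where 14.7% of all genes fell. The log2 fold change of Stub1, a ubiquitin ligase of the chaperone complex, was −1.01 ± 0.22 (adjusted p = 0.00208). In p110β controls 1 chaperone rose (Hsp90ab1, 0.37 ± 0.12, adjusted p = 0.0330) and 1 fell (Stub1, −0.59 ± 0.18, adjusted p = 0.0218), where 14.5% of all genes rose and 12.4% fell. In the knockouts 2 (p110α) and 3 (p110β) fell, where 9.91% and 18.9% of all genes fell. Of 5 tested genes of steroid supply and its receptors, Abcb1b, an efflux pump that exports steroids, rose in all 4 comparisons, from 0.59 ± 0.17 in p110β controls (adjusted p = 0.0146) to 1.04 ± 0.14 in M-p110αKO (adjusted p = 7.96e-05). Hsd11b1, which regenerates active hormone, did not pass in any, and its estimate in p110β controls was 0.00 ± 0.21 (adjusted p = 0.991). Of 9 coregulators, Crebbp, a histone acetyltransferase, rose in all 4, by 0.66 ± 0.11 to 0.72 ± 0.11, and Nrip1, a corepressor, rose by 1.86 ± 0.26 in M-p110βKO (adjusted p = 2.80e-05) and fell by 0.65 in p110α controls (SE 0.22, adjusted p = 0.0337).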

How the data were processed

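The deposited table holds whole-number read counts per gene for 29 libraries, which the authors made from reads aligned to GRCm38. The submitters' processing notes name STAR, Subread and featureCounts, without versions. Strand setting and handling of reads with several matches were not stated, and the methods name no count model.

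Genes were kept with edgeR's filterByExpr (minimum count 10, minimum total 15), scaled by TMM and fitted with edgeR 4.0.16 quasi-likelihood tests (R 4.3.3) with 1 coefficient per group, within each line (12433 and 12249 genes) or over all 29 libraries for contrasts between lines (12760 genes). P-values were adjusted by Benjamini-Hochberg across every gene in the fit and called at 0.05. Printed CPM come from the joint scaling. The 10 genes and all lists were chosen with earlier results of these data known. All 10 were named in each comparison, with up to 4 genes of each other list by lowest adjusted p and the 3 genes closest to 4 of the members. Contrasts between fed knockouts, fasted controls and fasting in knockouts of the lines were added after seeing the data. Symbols, coordinates and exon lengths came from a GENCODE annotation of GRCm38 and promoters from RefSeq. Correlations used 100000 permutations within groups. No library was a copy of another: over 39 pairs within groups, chi-square per degree of freedom was 3.92 to 31. Each library is 1 mouse. Alternatives were DESeq2 1.42.0, limma-voom 3.58.1, no filter, a GC and length correction (splines with 5 degrees of freedom, 99.7% of genes covered), one fit over all libraries, and leaving out each mouse. The pipeline was run on simulated counts with known changes, and how many of these it recovered is not given here. Figures were drawn with matplotlib 3.10.9 (Python 3.11.15, numpy 2.4.6, scipy 1.17.1).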

Additional observations from a re-analysis of the deposited data

Results flagged for a closer look

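Of 50 groups of 4 mice examined, 2 held a mouse far from the others, where chance gives about 1 group in 20. Both were the same fasted p110α control, mouse 12: it held 37.9 CPM of Mt1 against 17.6 to 21.0 in the other 3, and 13.6 CPM of Mt2 against 7.31 to 7.66.

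The response to fasting differed between lines by the test of the difference itself. In controls it was larger in the p110β line by 3.15 for Mt2, 2.79 for Mt1, 1.76 for Cebpd and 1.23 for Cebpb on the log2 scale. Over all genes 0.933% had a higher response. Of 14 fits that left out 1 mouse, Cebpd lost its call in 11 and Cebpb in 1. Cebpd also missed by limma-voom and with the GC and length correction. In knockouts the signed difference, M-p110βKO minus M-p110αKO, was 5.10 for Mt2, 3.01 for Mt1, 2.33 for Fkbp5, 1.76 for Zbtb16, 1.54 for Tsc22d3, 1.30 for Cebpb, 1.11 for Klf15 and 0.67 for Nr3c1. Over all genes 5.63% passed above 0. Of 15 fits that left out 1 mouse, Nr3c1 lost its call in 8, Klf15 in 6 and Zbtb16 in 4. Nr3c1 also missed with the GC and length correction. For Tsc22d3 and Nr3c1 the responses had opposite signs in the 2 knockouts. The lines cannot be told apart from their genetic background or from any difference in handling.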

How the results depend on the processing

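No result reversed. No paired analysis was possible because no replicate number in the labels is shared between groups. Without the filter on low counts the number of the 10 genes called was 6 for fasting in p110α controls, 7 for fasting in M-p110αKO, 1 for fed and 3 for fasted M-p110αKO against controls, 2 for the p110α interaction, 3 for fed M-p110βKO, 3 for the p110β interaction and 8 for the line difference of fasting in controls. That fit, over 25331 to 27896 genes, gave infinite prior degrees of freedom, so all genes of like level shared 1 spread, against 6.89 to 8.46 with the filter. Shares over all genes were taken only for the main edgeR fits, so no count of an alternative fit can be set against one. With the GC and length correction it was 0 for fasted M-p110αKO and 3 for the lines' fasted controls, with one fit over all libraries 2 for fasted M-p110αKO, and without mice 23 and 24, chosen after seeing the data, 1 for the lines' fasted controls, a fit that leaves 1 fasted p110β control and assumes that it varies like the other groups. In the p110α line alone 1 gene followed Fkbp5, against 4 over all mice. The causes of these other changes were not tested. Leaving out each mouse in turn gave 2 to 6 genes for fasting in p110α controls, 3 to 4 in M-p110αKO, 8 to 9 in p110β controls and 9 to 10 in M-p110βKO. It gave 0 to 0 for fed and 0 to 2 for fasted M-p110αKO, 0 to 1 for fed and 0 to 1 for fasted M-p110βKO, 0 to 0 for the p110α and 0 to 1 for the p110β interaction. Between lines it gave 2 to 7 for fed controls, 9 to 10 for fed knockouts, 5 to 5 for fasted controls, 2 to 4 for fasting in controls and 5 to 8 for fasting in knockouts. DESeq2 made 5 and limma-voom 3 calls for fasting in controls between lines. The fewest reads were those of Mt2, down to 6 in a library, which limits its fed levels.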

Other observations

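Relatives of the transcription factors in the panel did not all move as it did. Of the other Krüppel-like factors, Klf10, known as a target of TGF-beta, rose by 1.49 ± 0.24 in p110α controls (adjusted p = 0.00016) and by 1.16 ± 0.22 in p110β controls (adjusted p = 0.000647). Klf13 fell by 0.66 in p110α controls (SE 0.15, adjusted p = 0.00343) and by 0.63 in p110β controls (SE 0.15, adjusted p = 0.0041). Of 11 tested in the p110α line, 3 rose and 2 fell with fasting in controls, and of 10 tested in the p110β line, 5 rose and 1 fell. Over all genes 15.4% rose and 14.7% fell in p110α controls, and 14.5% rose and 12.4% fell in p110β controls. Of 4 tested C/EBP relatives, 2 rose in the controls of each line, Cebpg and Cebpz in the p110α line and Cebpa and Cebpz in the p110β line. Cebpa, which adipocytes also express, was lower in fasted M-p110βKO than in fasted controls by −2.66 ± 0.52 (adjusted p = 0.0175), the controls that include mice 23 and 24.

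Among genes of zinc handling, the zinc importer Slc39a14 also rose with fasting in the p110β line, by 1.44 ± 0.42 in controls (adjusted p = 0.0163) and 1.68 ± 0.37 in M-p110βKO (adjusted p = 0.00163). Its fasted levels were spread widely, from 30.2 to 92.5 CPM in controls and from 24.9 to 92.3 CPM in M-p110βKO. Mtf1, the factor that binds the metal response element, had a log2 fold change of −0.42 ± 0.12 in M-p110βKO (adjusted p = 0.0101). Of the zinc genes tested, 1 rose and 3 fell of 10 in p110β controls, and 1 rose and 2 fell of 11 in p110α controls, beside the same shares over all genes. In M-p110βKO 2 rose and 4 fell of 10, where 19.0% of all genes rose and 18.9% fell.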
